A study of Zea mays with 4 samples.

Results

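The growth protocol gives the final near-isogenic line, read here as the P1-rr line, a piece of donor chromosome 6 from 89 to 102 Mb. It is a second piece, besides the donor DNA that brought in the P1 allele. All ChIP-seq peaks whose midpoint lay in this 13 Mb segment were taken as its members, using the borders stated in the growth protocol and no measured value. They numbered 215 of 35143 peaks in all. List 1, called on P1-rr replicate 1 with P1-ww replicate 1 as its control, held 125 of its 20424 peaks there. List 2, called on P1-rr replicate 2 with P1-ww replicate 2 as its control, held 90 of its 14719. The lists were kept apart throughout.

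P1, the product of pericarp color1, is an R2R3-MYB transcription factor that switches on flavonoid pigment genes in maize, among them the phlobaphene genes that redden the pericarp, the maternal layer around the kernel. Near-isogenic lines are made by crossing a donor repeatedly to a recurrent parent. Alleles linked to the selected gene come along with it, and unlinked donor pieces can survive by chance. Chromosome 6 of maize carries the nucleolus organizer on its short arm.

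The study used chromatin from pericarp of 14 days after pollination, precipitated with polyclonal antibodies against P1. All 4 libraries carry that age, although the growth text of 3 of them also mentions pericarps of 25 days. The P1-rr plants express P1 in this tissue, and their allele came from stock 65-CFS-305, which has both P1-rr and P2 in a 4 County 63 background. The P1-ww plants, near-isogenic in the A619 background, have a non-functional P1, and A619 lacks P2. In all, 4 libraries were made, 2 per genotype, from what the protocol calls biological duplicates, and the other donor piece of the line spans 35 to 66 Mb of chromosome 1. The protocol assigns the chromosome 6 piece to the final near-isogenic line, read here as the P1-rr line, and does not say that the P1-ww plants carry it. Across these 13 Mb, P1 and the origin of the DNA therefore differ together between the genotypes and cannot be told apart. P2, present in the donor stock and lacking in A619, may differ along with them. The borders are given in whole Mb. The protocol names build AGPv2 beside the chromosome 1 borders and no build beside those on chromosome 6, and no source used here names the build of the peak positions. All 3 are taken to be the same, and peaks are given without genes or promoters for that reason.

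Peak density in the donor segment differed from that of the rest of chromosome 6 by less than counting error in both duplicates. List 1 had 9.62 peaks per Mb in the segment (exact Poisson 95% interval 8.00 to 11.5) and 9.51 on the rest of the chromosome (9.03 to 10.0), where 1485 peaks lay. List 2 had 6.92 per Mb in the segment (5.57 to 8.51) and 6.94 on the rest (6.53 to 7.36), where 1083 peaks lay. The ratio of segment to rest was 1.01 in list 1 (exact binomial 95% interval 0.835 to 1.21, two-sided exact binomial p = 0.89) and 0.998 in list 2 (0.796 to 1.24, exact binomial p = 1.0). Adjusted over the 3 density comparisons, p was 1.0 for each. A density 1.24 times that of the rest, or 0.796 times, remains within the list 2 interval. These intervals treat peaks as independent. The counts per 1 Mb window were more variable than that, since on the rest of the chromosome list 1 had a mean of 9.51 and a variance of 20.9, and list 2 a mean of 6.93 and a variance of 11.5, so the intervals are too narrow. They cover counting error only, since the lists hold no reads and the depth of the libraries is unknown.

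Covered sequence gave like values. The segment's peaks covered 1985 bp per Mb in list 1, against 1987 on the rest of chromosome 6, and 2731 bp per Mb in list 2, against 2546. The ratios were 0.999 and 1.07. The segment of chromosome 6 and the donor segment of chromosome 1 also had similar densities. In list 1 these were 9.62 and 9.10 peaks per Mb (ratio 1.06, exact binomial 95% interval 0.849 to 1.31), and in list 2 they were 6.92 and 7.65 (ratio 0.906, 0.702 to 1.16).

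Chromosome 6 was cut into 12 stretches of 13 Mb, with the donor segment as one of them. The segment ranked 7 of 12 by list 1 peaks and 6 of 12 by list 2 peaks. The other stretches ran from 80 to 170 peaks in list 1 and from 55 to 135 in list 2. Both extremes lay on the lower-numbered side of the segment, the fewest peaks at 11 to 24 Mb and the most at 37 to 50 Mb in either list. With 4 shared regions the segment ranked 4 of 12, where the stretches ran from 0 to 9.

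**Figure D1:**
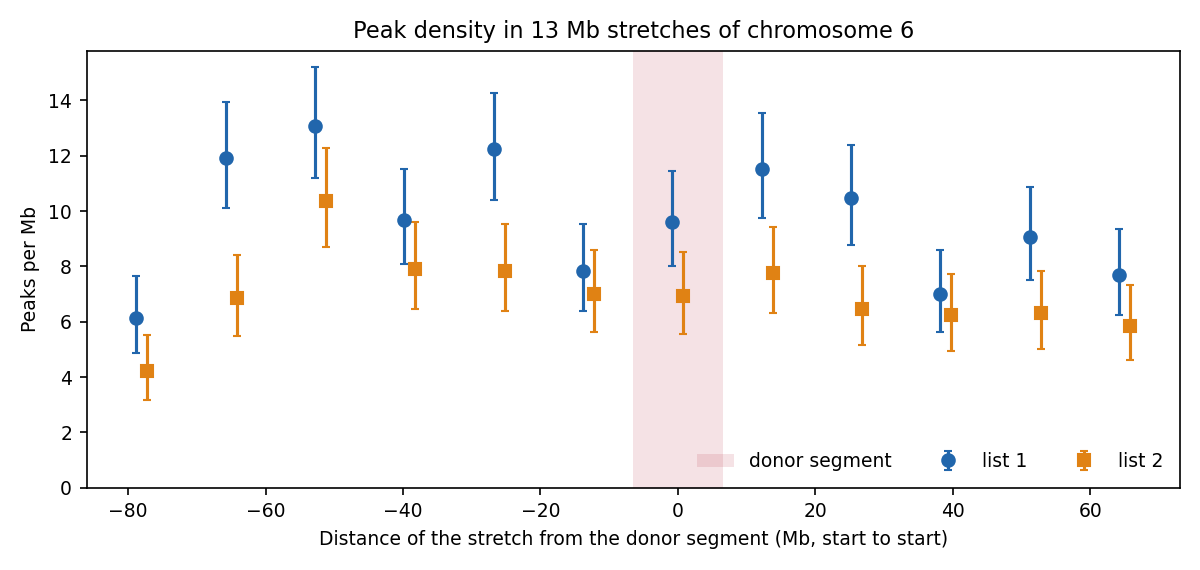
Peaks per Mb (vertical axis) in the 12 stretches of 13 Mb on chromosome 6, placed by their distance in Mb from the donor segment, which is shaded; circles are list 1, squares list 2, and bars exact Poisson 95% intervals. The segment, at 9.62 and 6.92 peaks per Mb, lies in the middle of the range of both lists.

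Inside the segment the peaks were spread unevenly. List 1 held between 3 and 17 peaks per 1 Mb window (median 10). Its fullest windows were 93 to 94 Mb and 99 to 100 Mb, with 17 peaks each. List 2 held between 0 and 13 (median 7), and its fullest windows were 91 to 92 Mb and 95 to 96 Mb, with 13 peaks each. The fullest windows of the duplicates were thus different ones: list 1 had 11 and 9 peaks where list 2 had 13, and list 2 had 7 and 9 where list 1 had 17. Across the 13 windows the counts of the lists went together with Pearson's r of 0.47 and Spearman's rho of 0.59. Over the 156 whole windows of the rest of the chromosome r was 0.48 and rho 0.48. These are descriptions, since both lists are counted over the same windows and share their sequence, alignable positions and base composition.

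The window from 97 to 98 Mb had no list 2 peak at all, while list 1 had 6 there. The list 1 peaks of that window had low to middling scores, 74.8, 112.54 on 2 peaks, 194.5, 282.63 and 328.46. Of the 156 whole windows on the rest of chromosome 6, 1 was empty in list 1 and 1 in list 2. The sparsest list 1 windows were the last in the segment, with 3 peaks at 100 to 101 Mb and 4 at 101 to 102 Mb. List 2 held 3 and 6 there.

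In both lists the window just outside the lower border was dense, and the one just inside held fewer peaks. The first 1 Mb inside the segment held 6 list 1 peaks (exact Poisson 95% interval 2.20 to 13.1) and 4 list 2 peaks (1.09 to 10.2). The last 1 Mb outside it, from 88 to 89 Mb, held 19 (11.4 to 29.7) and 16 (9.15 to 26.0). Of the 169 whole windows of chromosome 6, only 6 in list 1 and 2 in list 2 held more peaks than that outside window, and it also had 2 shared regions. It was singled out after its counts were seen, so no test is given. The inside window was not extreme, since 34 of the 169 windows held fewer peaks in list 1 and 24 in list 2. At the upper border the last 1 Mb inside held 4 and 6 peaks and the first outside held 9 and 8. The members nearest the lower border were a list 2 peak centred 0.853 kb inside it, at positions 89000754 to 89000953 with a score of 104.12, and a list 1 peak 34.2 kb inside it with a score of 471.53. The nearest peaks outside were 25.0 kb away in list 1 (score 152.6) and 38.0 kb away in list 2 (score 177.65). At the upper border the last members were 275 kb inside in list 1 and 111 kb inside in list 2, and the next peaks outside were 118 kb and 159 kb beyond it.

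**Figure D2:**
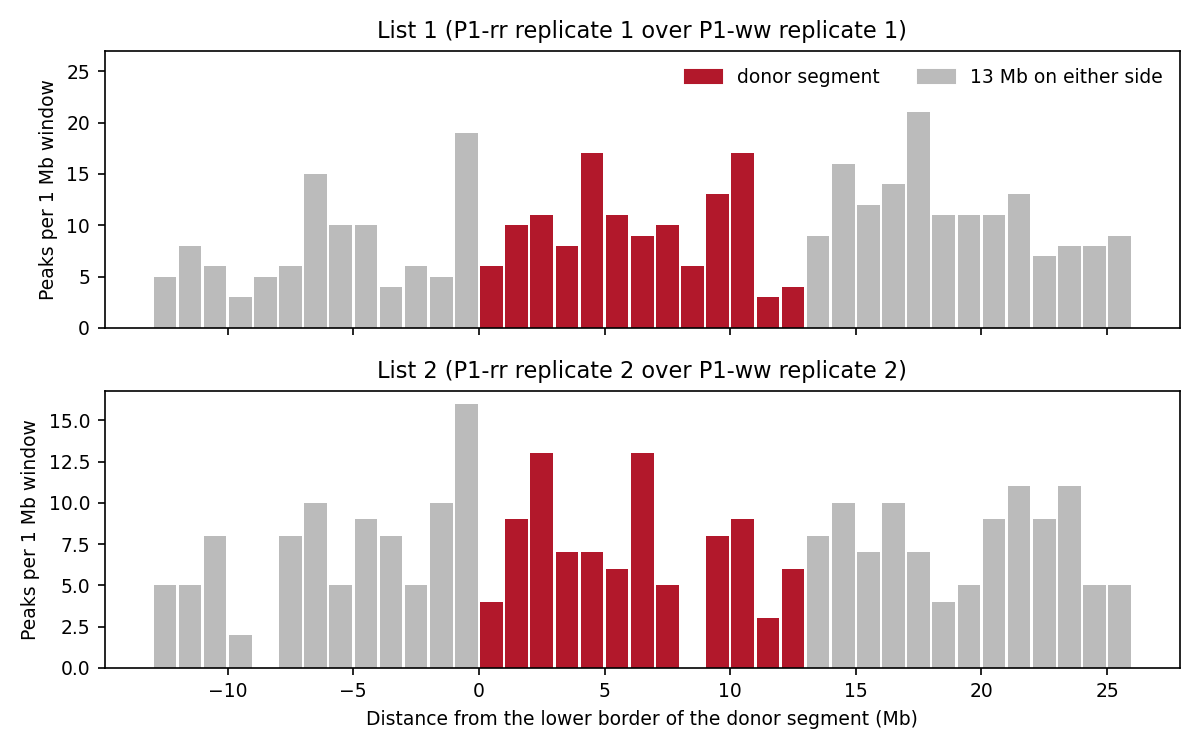
Peaks per 1 Mb window (vertical axis, one panel per list) against the distance in Mb from the lower border of the donor segment; red bars are the 13 windows of the segment and grey bars the 13 Mb on either side. The window just inside the lower border holds 6 list 1 and 4 list 2 peaks, against 19 and 16 just outside it, and list 2 has an empty window 8 Mb into the segment.

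A total of 4 sites in the segment was called in both duplicates. They are the only members with a replicate check, and the share of members they make up was close to that of the lists as a whole. In list 1, 4 of 125 members (3.20%, Wilson 95% interval 1.25 to 7.94) had 1 bp or more in common with a list 2 peak, against 33 of 1485 (2.22%) on the rest of chromosome 6 and 2.23% of the whole list. In list 2, 4 of 90 (4.44%, 1.74 to 10.9) overlapped list 1, against 33 of 1083 (3.05%) on the rest and 3.08% of the whole list. The differences from the rest were 0.978 percentage points in list 1 (Newcombe 95% interval -1.16 to 5.76) and 1.40 in list 2 (-1.56 to 7.89). Shared regions had a density of 0.308 per Mb in the segment and 0.211 on the rest, a ratio of 1.46 with an exact binomial 95% interval of 0.375 to 4.09 (exact binomial p = 0.53, adjusted p = 1.0). A count of 4 leaves a wide range, and ratios from 0.375 to 4.09 remain within the interval.

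The first of these regions, at positions 89288825 to 89289629, lay 0.289 Mb from the lower border. Its list 1 peak of 200 bp scored 375.29 and sat wholly inside a list 2 peak of 805 bp that scored 45.62. The second, at 91218607 to 91218937, was the shortest, at 331 bp, and the only one in which the peaks covered at least 50% of each other, with 166 bp in common. Its scores were 423.01 in list 1 and 186.19 in list 2, which were higher than those of 63.4% of list 1 peaks and 92.0% of list 2 peaks. The third, at 98787276 to 98788193, was the weakest link, with 50 bp in common between a list 1 peak scoring 152.6 and a list 2 peak of 768 bp scoring 46.5. The fourth, at 101487154 to 101487781, paired a list 1 peak scoring 724.22, the highest list 1 score of the 4, with a list 2 peak of 603 bp scoring 53.9. They shared 175 bp.

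No region paired peaks from the highest-scoring 10% of both lists. That class holds 9.83% of all list 1 and 9.82% of all list 2 peaks. With regions this few, nothing about shared regions is read from the missing pair. Only the second region was in that class of list 2, and none was in that class of list 1. The list 2 peaks of the other regions were wide and low, scoring higher than at most 29.7% of their list. The regions measured 331 to 918 bp (median 716.5), and the 33 on the rest of chromosome 6 measured 216 to 947 bp (median 443). Another pair missed overlap by 20 bp: a list 1 peak at 100117452 to 100117651 (score 328.46) and a list 2 peak at 100117232 to 100117431 (score 84.93).

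At larger distances, too, the closeness of the duplicates did not differ detectably between the segment and the rest of the chromosome. Within 5 kb of a peak of the other list were 11 of 125 list 1 members (8.80%, Wilson 95% interval 4.98 to 15.1), against 11.2% on the rest of chromosome 6 and 13.1% over the 10 chromosomes. In list 2 there were 11 of 90 (12.2%, 6.96 to 20.6), against 14.3% and 17.3%. The differences from the rest of chromosome 6 were -2.45 percentage points in list 1 (Newcombe 95% interval -6.63 to 4.00) and -2.09 in list 2 (-7.79 to 6.49). The median distance of a member's centre to the nearest centre of the other list was 44.9 kb in list 1 (95% interval of the median 29.7 to 59.5), against 41.6 kb on the rest, and 28.6 kb in list 2 (22.5 to 40.7), against 30.8 kb.

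Scores, the authors' own value per peak, ranged from 67.74 to 3151.69 among list 1 members. Their median was 328.46 (interquartile range 194.5 to 570.75), and that of the rest of chromosome 6 was 282.63 (152.6 to 621.33). The 95% interval of the segment's median, 237.92 to 375.29, includes the value of the rest. Set against the 13 Mb on either side, whose median was 237.92 (95% interval 194.5 to 282.63), the difference was 90.54, against 45.83 for the rest of the chromosome. Scores at or above the median of the whole list were held by 57.6% of members (Wilson 95% interval 48.8 to 65.9). The share was 51.8% on the rest (49.2 to 54.3) and 46.0% on either side (40.0 to 52.2). In the whole list it was 52.4%, raised by ties. These score differences were not tested. Scores in list 1 come in steps, with 40 distinct values among the 125 members, and 328.46 is the next common step above 282.63. Of the common steps, 423.01 was held by 11 members (8.80%), against 3.91% of peaks on the rest, and 3100 by 2 members (1.60%), against 3.84%. These steps were picked after the values were seen. Other common steps lay closer to the rest, such as 194.5 (8.0% against 8.15%).

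List 2 members scored from 40.42 to 364.41, with a median of 65.1 (interquartile range 53.9 to 111). On the rest of chromosome 6 the median was 69.7 (51.96 to 111) and the highest score 1465.9. The 95% interval of the segment's median was 59.2 to 80.4. The commonest score among list 2 members was 55.17, on 7 peaks (7.78%), against 2.12% on the rest. This score was picked after the values were seen. Other common scores lay on either side, such as 116.93 (2.22% against 3.88%) and 53.9 (3.33% against 1.29%). Of the 12 stretches of the chromosome, the segment ranked 9 by its highest list 2 score. By its median score it ranked 10 in list 2 and tied for first in list 1.

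The share of strong peaks did not differ detectably from that of the rest. In the highest-scoring 10% of list 1 were 12 of 125 members (9.60%), against 136 of 1485 peaks (9.16%) on the rest and 9.83% of the whole list, where ties keep the class just under 10%. In list 2 there were 11 of 90 (12.2%), against 105 of 1083 (9.70%) on the rest and 9.82% of the whole list. The differences were 0.442 percentage points (Newcombe 95% interval -3.88 to 7.02) and 2.53 (-3.07 to 11.0).

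The 5 members with the highest list 1 scores were each 200 bp wide. The highest, 3151.69, was at positions 100213787 to 100213986, directly before the longest stretch without a list 1 peak. Peaks at 94531515 to 94531714 and at 96032845 to 96033044 both scored 3100, followed by 3057.65 at 99760673 to 99760872 and 2808.57 at 93166536 to 93166735. None overlapped a list 2 peak. Only 2.23% of all list 1 peaks did, so this is no trait of the strongest members. The nearest list 2 centres were 96.6, 69.8, 12.8, 104 and 15.1 kb away, in the same order.

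The highest list 2 score, 364.41, was at 94843440 to 94843654, in a peak of 215 bp. Next came 308.83 at 91132496 to 91132695, 286.91 at 93502218 to 93502417, 229.03 at 91533231 to 91533430 and 204.38 at 95514831 to 95515068. These peaks were 200 to 238 bp wide and none overlapped list 1, as only 3.08% of all list 2 peaks did.

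Strong peaks, those in the highest-scoring 10% of a list, were counted in parts of the segment. From 90 to 92 Mb list 2 had 22 peaks, 5 of them in its highest-scoring 10%, and a median score of 116.93. List 1 had 21 peaks there, 0 of them in its highest-scoring 10%, and none scored above 621.33. From 93 to 97 Mb both lists had strong peaks, 7 of 47 in list 1 and 5 of 31 in list 2. From 98 to 101 Mb there were 4 of 33 in list 1 and 1 of 20 in list 2. These stretches were picked after the scores were seen and are given without a test. They leave out 89 to 90 Mb, where list 1 had 1 strong peak. The class holds 9.83% of all list 1 and 9.82% of all list 2 peaks. With counts this small, no difference between stretches is read from them. The closest approach of strong peaks was 12.8 kb, between the list 1 peak at 96032845 to 96033044 (score 3100) and a list 2 peak at 96045632 to 96045831 (score 177.65). The next closest was 14.1 kb, between 95281222 to 95281421 in list 1 (2439.96) and 95295275 to 95295474 in list 2 (180.53).

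**Figure D3:**
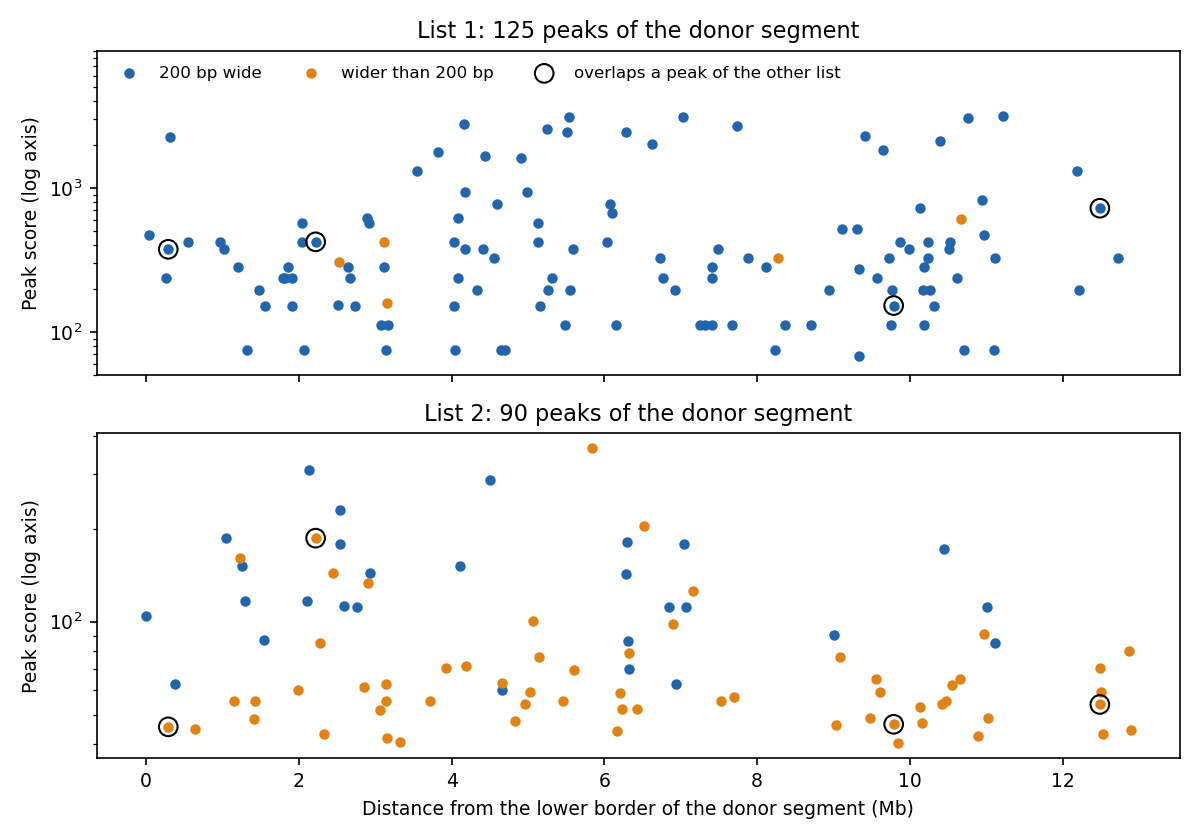
Score of each member (vertical log axis, one panel per list) against its distance in Mb from the lower border of the donor segment; blue points are peaks of 200 bp, orange points wider peaks, and open circles mark members that overlap a peak of the other list. The 4 circled sites are spread over the segment, and in list 2 the wider peaks hold the lower scores, with a median of 56.1 against 114.55 for peaks of 200 bp.

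Peak width differed between the lists and not detectably between the segment and the rest. In list 1, 120 of 125 members had the smallest width, 200 bp, and the 5 wider ones measured 214 to 557 bp. In list 2, 62 of 90 members were wider than 200 bp (68.9%, Wilson 95% interval 58.7 to 77.5), against 69.5% on the rest of chromosome 6, a difference of -0.640 percentage points (Newcombe 95% interval -11.2 to 8.43). The median width of all 90 members was 368.5 bp (interquartile range 200 to 541), against 326 bp (200 to 496) on the rest, and the 95% interval of the segment's median was 247 to 423 bp. The wider list 2 members scored lower. They had a median of 56.1 (95% interval of the median 53.9 to 62.7), and the 28 members of 200 bp had a median of 114.55 (104 to 151). On the rest the medians were 57.55 and 116.93. Spearman's rho of score and width was -0.66 across the 90 members and -0.62 across the 1083 other peaks, a description across sites of 1 list.

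The widest members of both lists lay near each other around 92.1 Mb. The widest list 2 member, 856 bp at positions 92136443 to 92137298, scored 62.68. The widest list 1 member, 557 bp at 92154285 to 92154841, scored 159.1, and its centre was 17.7 kb from that of the list 2 peak. Between 92.1 and 92.2 Mb lay 5 list 1 and 3 list 2 members. A list 2 member of 767 bp at 92158078 to 92158844 (score 42.13) lay between that widest list 1 peak and another at 92160045 to 92160244 (score 112.54). No peaks of the different lists overlapped in this stretch, where overlap is rare anywhere (2.23% of all list 1 and 3.08% of all list 2 peaks). The next widest list 2 members were 838 bp at 96692612 to 96693449 and the 805 bp peak of the first shared region.

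Spacing between neighbouring members was near that of the rest of the chromosome. The median distance between neighbouring centres was 62.6 kb in list 1 (95% interval of the median 44.5 to 85.9), against 64.1 kb on the rest, and 81.5 kb in list 2 (57.3 to 108), against 88.8 kb. Neighbours within 2 kb of each other made up 6 of 124 pairs in list 1 (4.84%, Wilson 95% interval 2.24 to 10.2), against 4.18% on the rest. In list 2 there was 1 of 89 (1.12%, 0.199 to 6.09), against 3.52%.

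The 6 close pairs of list 1 included a pair of triplets. The first triplet spanned 93166536 to 93169441 and held scores of 2808.57, 375.29 and 936.01, so that 1 of its peaks was among the 5 strongest of the segment. The second spanned 96409367 to 96410778, with scores of 282.63, 112.54 and 237.92, and contained the closest pair, 506 bp from centre to centre. The close pair of list 2, 1708.5 bp apart at 101485463 to 101486030 and 101487154 to 101487756, included the list 2 peak of the fourth shared region. It ended the longest stretch without a list 2 centre, 1368 kb, which began at the peak at 100117232 to 100117431. The longest such stretch in list 1, 968 kb between centres at 100213787 to 100213986 and 101181965 to 101182164, lay wholly within it. The rest of chromosome 6 had longer stretches in both lists, with list 1 reaching 1731 kb and list 2 reaching 1852 kb.

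The density ratios were recomputed with other backgrounds, borders and definitions, and none passed the test.

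**Figure D4:**
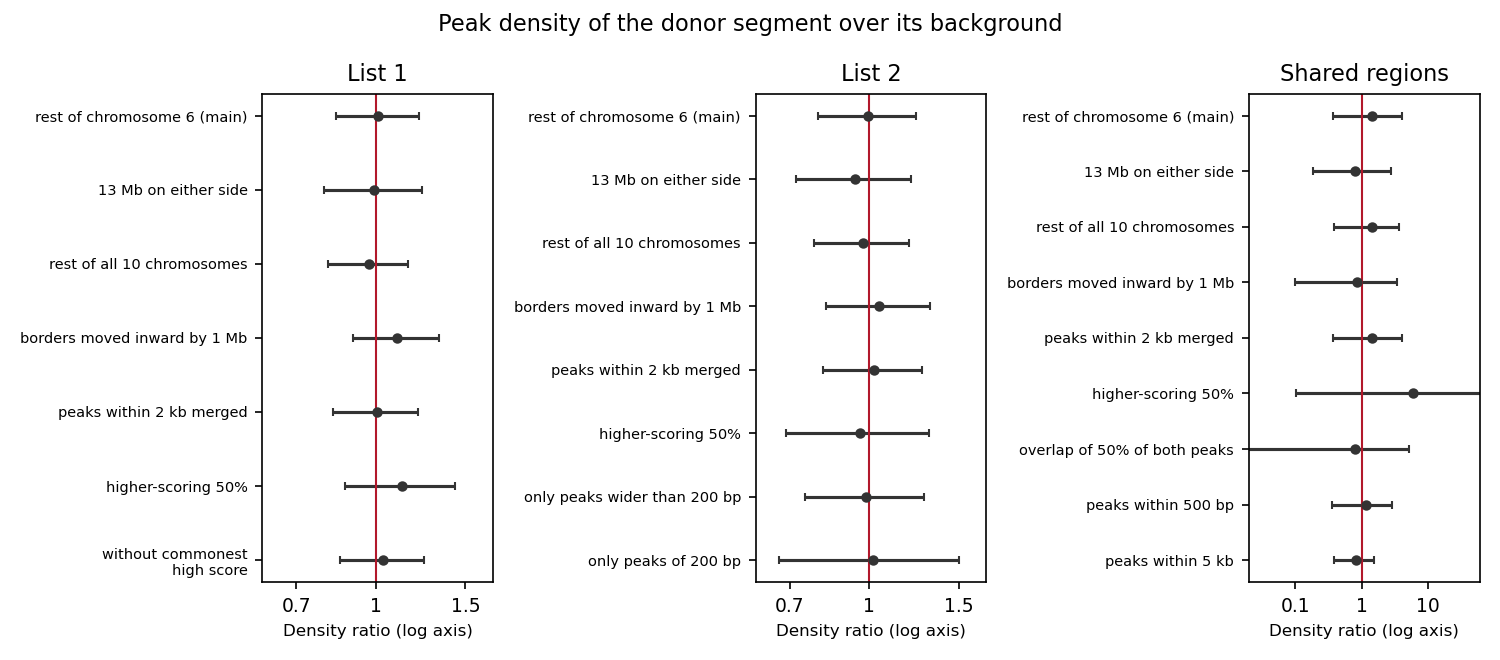
Ratio of peak density in the donor segment to that of its background (horizontal log axis) for list 1, list 2 and shared regions, under each background or definition named on the vertical axis; points are ratios, bars exact binomial 95% intervals cut at the edge of the panel, and the red line marks equal density. Ratios run from 0.970 to 1.12 in list 1, 0.938 to 1.05 in list 2 and 0.800 to 6.01 for shared regions, and every interval drawn includes 1.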

How the data were processed

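P1 ChIP-seq libraries from pericarp of 2 P1-rr and 2 P1-ww samples were summarised by the authors as 2 headerless peak lists, each called on 1 pair of same-numbered P1-rr and P1-ww libraries, per the labels. CASAVA version 1.4 and Bowtie are named in the submitters' processing notes, and the deposited peaks are named after MACS. No source used here gives its version, its settings, the handling of duplicate reads or the genome build. Each deposited score is a value from the peak caller, on a scale not stated, and was used only within its list. Starts were changed to counting from 1. The lists hold no reads, so depth is unknown; 0 value columns were left unmapped.

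Peaks were assigned by midpoint. The rest of chromosome 6 is the span up to the last peak end, 169138750, less the segment. Densities were compared by the exact conditional binomial test, two-sided, with Benjamini-Hochberg adjustment over 3 ratios. Shares carry Wilson intervals, their differences Newcombe intervals, densities exact Poisson intervals and medians binomial order-statistic intervals, all at 95%. Shared regions are unions of peaks overlapping by 1 bp or more. Python 3.11.15, numpy 2.4.6, pandas 2.3.3, scipy 1.17.1 and matplotlib 3.10.9 were used, and the density and overlap computations were tested on simulated data. The density simulation placed peaks independently, so it does not check the intervals under the greater variation between windows seen here. Named peaks are all shared regions, the 5 highest-scoring members per list, the 3 widest of list 2, those next to each border, and the closest and most distant neighbours. The other peaks named were chosen after their values were seen. Members and rules were chosen with earlier results of these data known. The gene table at hand describes another assembly and was not used.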

Additional observations from a re-analysis of the deposited data

How the results depend on the processing

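In all, 34 alternative values were computed for 10 results, and 22 counted as unchanged. For density ratios that means the same side of 1 and of the test's threshold. For shares, medians and covered length, which have no test, it means a move within a 95% interval around the reported value (that of the segment's median, for medians). The list 1 score difference, 45.83, was 90.54 against 13 Mb on either side, which is within that wide interval. No density ratio was called under any alternative, with exact binomial p of at least 0.33 in list 1, 0.66 in list 2 and 0.21 for shared regions. Between them, 10 alternatives changed side of 1. Some were of the list 1 and list 2 ratios, which lay near 1. Others were of the shared-region ratio, 1.46 in the main setting, whose side therefore depended on background and definition. In list 1 the ratio was 0.992 against 13 Mb on either side and 0.970 against the rest of all 10 chromosomes. In list 2 it was 1.05 with borders moved inward by 1 Mb, 1.02 with peaks within 2 kb merged and 1.02 with only peaks of 200 bp. For shared regions it was 0.800 against 13 Mb on either side, 0.860 with borders moved inward, 0.801 with overlap of 50% of both peaks and 0.823 within 5 kb. It was 0.998 to 1.01 for single lists, without replicate 1 or without replicate 2, and 6.01 among peaks at or above the list medians, where 1 region lay in the segment. The share of shared peaks, segment minus rest, moved to -2.45 percentage points in list 1 and -2.09 in list 2 within 5 kb. The cause was not tested. No paired analysis was possible because a list holds no value per library: its peaks were called from 1 P1-rr and 1 P1-ww library together. Shared regions are few, so modest differences cannot be seen.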
